A study of Rattus norvegicus with 18 samples.

Results

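The heat shock chaperones followed here are 10 genes of the protein-folding machinery in the extensor digitorum longus (EDL), a fast hindlimb muscle of the rat. They were found by taking the array probe sets whose single gene symbol was Hspa8, Hspa5, Hsp90aa1, Hsp90ab1, Hsph1, Dnajb1, Hspb1, Hspb6, Cryab or Hspbp1, with 1 probe set per gene chosen by the highest mean level. All 10 were measured, out of 16856 genes with a single-symbol probe set, and all 10 passed the filter on low values that left 12749 genes for testing. The mean level over all animals chose the probe set of Hspa8, which had 9 of them, while the other members had 1 each. The genes themselves were listed with earlier results of these data known, so the p-values below place each member among all genes tested and are not independent support for it.

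The animals were adult Sprague-Dawley females of the F2 generation, and the study asked what a high-fat diet of the grandfather (F0) and of the female herself does to muscle. Group names give the grandfather's diet before the slash and the female's own diet after it: high-fat/high-fat and high-fat/chow, with 4 animals each, and chow/high-fat and chow/chow, with 5 each. The female's own diet lasted 12 weeks, and 42/45% of the energy in the high-fat diet came from fat. Each array carried RNA of the whole muscle of 1 animal, so less of a transcript per fibre and fewer cells that hold it cannot be told apart. Precision is limited by how many arrays there are. The labels do not give how many grandfathers founded each lineage, and relatives counted as independent animals would make the p-values of the grandpaternal comparisons too small. The tissue label was checked against fast-muscle markers: 8 of 12 were tested (Myh4, Myh1, Mylpf and Atp2a1 had no single-symbol probe set), and each of the 8, Acta1, Ckm and Actn3 among them, lay at 11.6 log2 or more on every array, where the filter on low values was 5.26. Levels of slow-muscle markers were not set beside these, so the check does not tell EDL from other muscles. Deposited array medians ran from 55.02 to 73.97, with both arrays under 60 in the chow/high-fat group, and levels below are log2(intensity + 16) after quantile normalization.

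Hsp70 proteins bind unfolded stretches of other proteins and release them in a cycle driven by ATP. J-domain proteins such as Dnajb1 start that cycle by promoting ATP hydrolysis, nucleotide exchange factors such as Hsph1 and Hspbp1 open it again, and Hsp90 takes on clients at a later stage of folding. Small heat shock proteins, here Hspb1, Hspb6 and Cryab, hold damaged proteins without using ATP and in striated muscle associate with the filaments of the sarcomere and the cytoskeleton. Many of these genes are under the heat shock factors, which bind repeats of a GAA unit in alternating orientation, and Hspa5, the Hsp70 of the endoplasmic reticulum, is a classical target of the unfolded protein response.

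The promoters are shown for the elements through which heat shock factors and the unfolded protein response are known to act, and beside the covariation of the members given further on, in which 1 of 45 pairs passed. No link between motifs and values was tested. RefSeq windows of assembly GRCr8, from 250 bases before to 50 after the start, were held for 8 members (Hspa8, Hspa5, Hsp90ab1, Hsph1, Dnajb1, Hspb1, Hspb6 and Hspbp1). They were searched on both strands for paired heat shock units, head to head (GAANNTTC) or tail to tail (TTCNNGAA), for 3 such units in a row (which contain both pairs), for CCAAT, and for the endoplasmic reticulum stress element (CCAAT, a gap of 9 bases, then CCACG). Stretches that hold matches follow, 5′ to 3′ on the strand of the gene, with the paired heat shock units in capitals and, in Hspa5, the stress element. CCAAT elsewhere is in lower case, and a head-to-head pair of Dnajb1 (18 to 25) and a tail-to-tail pair of Hspb6 (-239 to -232) lie outside the stretches.
Hspa8 (chr8:50080294-50080513, plus strand): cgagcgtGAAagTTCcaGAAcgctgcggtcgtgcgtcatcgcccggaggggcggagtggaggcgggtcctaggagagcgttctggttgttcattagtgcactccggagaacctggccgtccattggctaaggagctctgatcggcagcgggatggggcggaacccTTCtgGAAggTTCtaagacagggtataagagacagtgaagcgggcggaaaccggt
Hsph1 (chr12:10427248-10427367, plus strand): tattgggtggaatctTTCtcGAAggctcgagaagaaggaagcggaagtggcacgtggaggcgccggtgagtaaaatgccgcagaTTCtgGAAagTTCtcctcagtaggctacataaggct
Hspb1 (chr12:26432392-26432441, minus strand): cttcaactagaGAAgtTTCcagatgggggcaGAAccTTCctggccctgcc
Hspb6 (chr1:94934212-94934251, plus strand): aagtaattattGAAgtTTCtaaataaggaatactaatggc
Dnajb1 (chr19:41431142-41431181, minus strand): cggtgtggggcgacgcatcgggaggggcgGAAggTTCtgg
Hspa5 (chr3:38452956-38453015, plus strand): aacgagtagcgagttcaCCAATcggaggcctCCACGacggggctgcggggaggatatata
Hspa8 held 3 alternating units at 2 places, from -213 to -201 and from -55 to -43 relative to the start, and Hsph1 held them from -36 to -24 with another tail-to-tail pair from -105 to -98. Runs of 3 units occurred in 0.798% of 33469 rat promoter windows. At least 1 pair was present in 5 of the 8 member promoters (Hspa8, Hsph1, Dnajb1, Hspb1 and Hspb6), against 15.9% of all windows. Head-to-head pairs occurred in 5 of 8 and tail-to-tail pairs in 3 of 8, against 8.59% and 8.77% of all windows. Hspb1 had head-to-head pairs from -129 to -122 and from -109 to -102, Dnajb1 from -11 to -4 and from 18 to 25, and Hspb6 from -149 to -142. The promoter of Hspa5 held the endoplasmic reticulum stress element from -43 to -25, which was present in 22 of all windows (0.0657%), while CCAAT alone was present in 6 of 8 member promoters and 37.5% of all windows. No paired unit was found in the windows of Hspa5, Hsp90ab1 or Hspbp1.

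**Figure D1:**
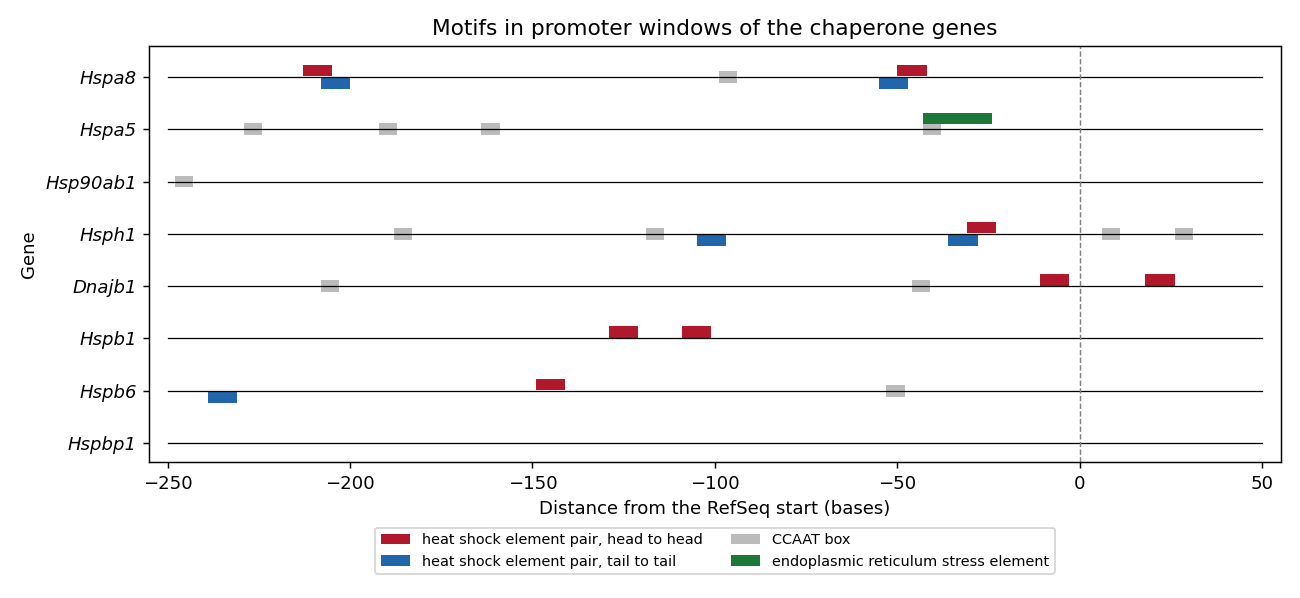
Positions of the motifs in the promoter windows of 8 chaperone genes. The horizontal axis is the distance from the RefSeq start in bases, each line is the window of 1 gene, and coloured boxes are matches on either strand. Paired heat shock units lie in 5 of the 8 windows, and the endoplasmic reticulum stress element lies only in that of Hspa5.

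The diets were compared in 7 ways: the own diet within each lineage and averaged over both, the grandpaternal diet within each own diet and averaged over both, and the interaction. Of the 10 chaperones, 0 passed a limma adjusted p of 0.05 in any of the 7. For the own diet this stood against a background of 0.0157% of the 12749 tested when averaged over lineages, 0% in the high-fat lineage and 0% in the chow lineage. For the grandpaternal diet the background was 0.196% averaged over own diets, 0% at own high-fat diet and 0.00784% at own chow diet, and for the interaction it was 0%. At an unadjusted p under 0.05, 1 member was found for the own diet averaged over lineages, 2 in the high-fat lineage and 0 in the chow lineage, among 857, 1174 and 611 genes. For the grandpaternal diet these were 3 members averaged, 1 at own high-fat diet and 1 at own chow diet, among 1862, 1688 and 1112 genes, and for the interaction 1 member among 866 genes. With a pass rate this low over all genes, the absence of calls among 10 members is close to the background, and the intervals below show what sizes the arrays leave possible.

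Hspbp1, the cochaperone that removes nucleotide from Hsp70 and is also known to restrain the ubiquitin ligase that works with Hsp70, was the member that stood apart. Its log2 levels were 7.85, 7.89, 8.02 and 8.14 in the high-fat/high-fat group, 7.67, 7.50, 7.73 and 7.66 in high-fat/chow, 7.68, 7.78, 7.70, 7.58 and 7.59 in chow/high-fat and 7.75, 7.75, 7.67, 7.73 and 7.78 in chow/chow. The 4 high-fat/high-fat animals all lay above the other 14, and the other 3 groups overlapped. Group values were 7.97 ± 0.13 in high-fat/high-fat, 7.64 ± 0.10 in high-fat/chow, 7.67 ± 0.082 in chow/high-fat and 7.74 ± 0.044 in chow/chow animals (mean log2 level ± SD, n = 4, 4, 5 and 5). High-fat/high-fat minus chow/high-fat was 0.31 log2 (SE 0.070, 95% confidence interval 0.16 to 0.45, limma adjusted p = 0.0995), or 1.24-fold on the scale with the offset. High-fat/high-fat minus high-fat/chow was 0.33 log2 (SE 0.073, 95% confidence interval 0.18 to 0.49, limma adjusted p = 0.247), or 1.26-fold. Both intervals exclude 0, and neither difference passed the adjustment over all genes. In the complementary comparisons the values had the opposite sign: -0.098 log2 (SE 0.070, 95% confidence interval -0.24 to 0.047, limma adjusted p = 0.724) for high-fat/chow minus chow/chow, and -0.072 log2 (SE 0.066, 95% confidence interval -0.21 to 0.065, limma adjusted p = 0.999) for chow/high-fat minus chow/chow. The interaction, which sets these against each other, was 0.41 log2 (SE 0.099, 95% confidence interval 0.20 to 0.61, limma adjusted p = 0.549). Averaged over the other diet, the own-diet difference was 0.13 (adjusted p = 0.660) and the grandpaternal one 0.10 (adjusted p = 0.333).

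Groups without overlap were also counted over all genes. Hspbp1 was the 1 member of 10 without overlap for the own diet in the high-fat lineage, where 4.11% of all genes had none, and also at own high-fat diet for the grandpaternal one, where 4.71% had none. In the chow lineage the own diet left 0 members without overlap, against 0.753% of genes, and at own chow diet the grandpaternal diet left 0, against 3.27%. All 4 high-fat/high-fat animals lay outside the range of the other 14 in 37 genes, or 0.29%, and Hspbp1 was among them; that count was chosen after its values were seen.

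The sample titles carry, after the animal's number, a letter and a number that is 5, 7 or 9. What they stand for is not given, and animals were compared within each number as a possible batch. Some pairs of letter and number recur in both lineages, so the same number need not be the same batch there. A batch that follows the lineage cannot be told apart from the grandfather's diet. The title of high-fat/chow replicate 2 ends in a further 2, also unexplained. For Hspbp1, within number 5, where 1 high-fat/high-fat animal met 2 chow/high-fat ones, the grandpaternal difference was 0.39 log2, and within number 7, with 1 and 3 animals, it was 0.45. The own-diet difference in the high-fat lineage was 0.41 within number 5 (1 and 2 animals), 0.47 within number 7 (1 and 1) and 0.20 within number 9 (2 and 1). All 5 such values had to be positive, since every high-fat/high-fat animal lay above all animals of the other groups. Their signs therefore do not test for a batch. With the title number as a block the grandpaternal difference was 0.34 log2 (SE 0.078, adjusted p = 0.0759). On the table as deposited it was 0.55 (SE 0.11, adjusted p = 0.0144). There the median of all genes was itself shifted by 0.18, and 1680 of 12750 genes passed. Without high-fat/high-fat replicate 1 the difference of Hspbp1 was 0.35 (adjusted p = 0.0452). Without the chow/high-fat arrays of lowest median it was 0.25 (adjusted p = 0.401). The level of Hspbp1 also varied against the slow-muscle score between animals of a group, as given with the fibre markers below.

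**Figure D2:**
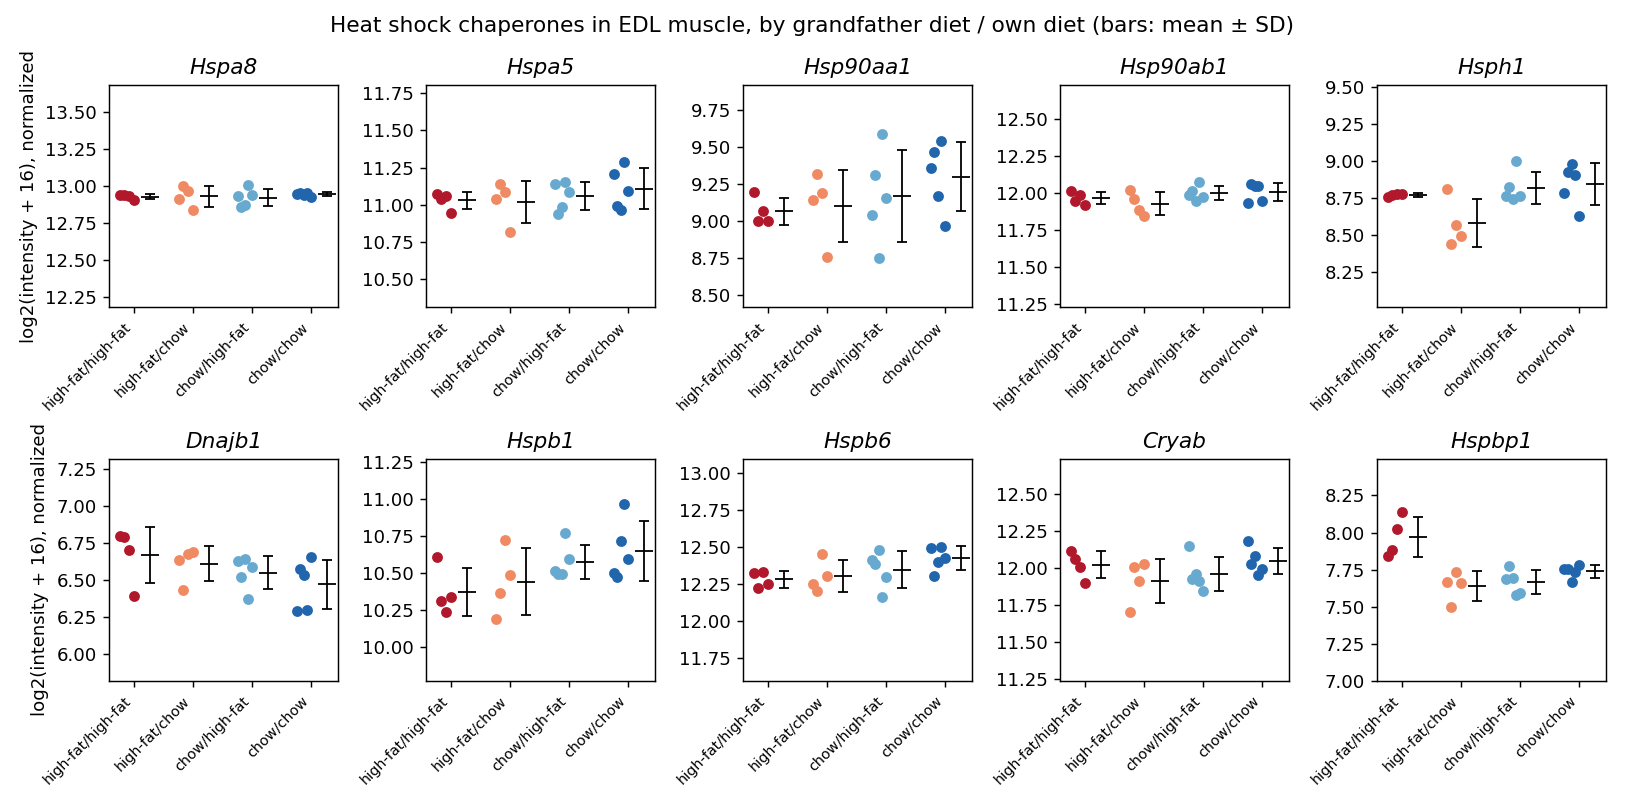
Normalized log2 level of each chaperone in every animal. Each panel is 1 gene with its own vertical range of equal height, points are animals (n = 4, 4, 5 and 5), and the bar beside them is the group mean ± SD. Hspbp1 is the panel in which the 4 high-fat/high-fat animals, at 7.85 to 8.14, lie above every other animal.

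Hsph1, an Hsp110 protein that also acts as a nucleotide exchange factor of Hsp70 and carries the heat shock units shown above, had its lowest values in the high-fat/chow group. Its levels were 8.76, 8.77, 8.78 and 8.78 in the high-fat/high-fat group, 8.81, 8.44, 8.57 and 8.50 in high-fat/chow, 8.76, 8.83, 8.74, 9.0 and 8.77 in chow/high-fat and 8.79, 8.93, 8.98, 8.91 and 8.63 in chow/chow. In the high-fat/chow group 3 of 4 animals lay below every other animal, and the fourth, at 8.81, lay inside the range of the rest. High-fat/chow minus chow/chow was -0.27 log2 (SE 0.083, 95% confidence interval -0.44 to -0.094, limma adjusted p = 0.436), and the grandpaternal difference averaged over own diets was -0.16 log2 (SE 0.058, 95% confidence interval -0.28 to -0.036, limma adjusted p = 0.216). High-fat/high-fat minus high-fat/chow was 0.19 log2 (SE 0.087, 95% confidence interval 0.010 to 0.37, limma adjusted p = 0.517). Between the high-fat/high-fat and chow/high-fat groups the difference was -0.049 (95% confidence interval -0.22 to 0.12). With the title number as a block, high-fat/chow minus chow/chow was -0.26 log2 (adjusted p = 0.363). The high-fat/high-fat animals lay within 0.022 log2 of each other, the narrowest range among the 4 groups for this gene.

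The J-domain protein Dnajb1, the partner that delivers clients to Hsp70, had a mean level 1.31 log2 above the filter. Its levels were 6.80, 6.79, 6.71 and 6.39 in the high-fat/high-fat group, 6.64, 6.44, 6.68 and 6.69 in high-fat/chow, 6.63, 6.52, 6.64, 6.38 and 6.59 in chow/high-fat and 6.29, 6.58, 6.54, 6.30 and 6.66 in chow/chow. The groups overlapped throughout, and the grandpaternal difference averaged over own diets was 0.13 log2 (SE 0.068, 95% confidence interval -0.014 to 0.27, limma adjusted p = 0.393). It was one of the 2 members, with Hspbp1, whose value in that comparison was positive.

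Hspa8, the constitutive cytosolic Hsp70 of most cells, showed the smallest spread. Its levels were 12.94, 12.94, 12.93 and 12.90 in the high-fat/high-fat group, 12.91, 13.00, 12.97 and 12.84 in high-fat/chow, 12.93, 12.86, 12.87, 13.01 and 12.94 in chow/high-fat and 12.95, 12.95, 12.94, 12.95 and 12.92 in chow/chow. All 18 animals lay within 0.17 log2, and the 7 differences ran from -0.024 to 0.022, each with an interval that includes 0. Its other 8 single-symbol probe sets gave differences from -0.051 to 0.12 over the 7 comparisons, with a smallest adjusted p of 0.286. They correlated with the chosen probe set at r = 0.59 to 0.92 over the 18 animals. The deposited table gives no positions, so copies of nearly the same sequence cannot be told apart among them, and the values may mix such copies. This tightness depends on the scaling. Only 24 to 45 of 20917 probe sets were brighter than Hspa8 on an array, and at that end quantile normalization sets a value by its rank. Deposited intensities of Hspa8 were 7898, 7435, 7216 and 7295 in high-fat/high-fat, 7073, 7202, 8034 and 7072 in high-fat/chow, 8213, 8182, 7443, 7907 and 7664 in chow/high-fat, and 8562, 8624, 8060, 8801 and 7766 in chow/chow animals. With arrays centred on their medians in place of quantile normalization, the grandpaternal difference was -0.20 log2 averaged over own diets (SE 0.051, limma adjusted p = 0.0795) and -0.25 at own high-fat diet (SE 0.073, adjusted p = 0.129).

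Hspa5, known as BiP or GRP78, folds proteins inside the endoplasmic reticulum. Its levels were 11.07, 11.04, 11.06 and 10.95 in the high-fat/high-fat group, 11.04, 11.14, 11.09 and 10.81 in high-fat/chow, 11.14, 10.94, 10.98, 11.15 and 11.08 in chow/high-fat and 11.21, 10.99, 10.96, 11.29 and 11.09 in chow/chow. The groups overlapped, and the differences ran from -0.089 for high-fat/chow minus chow/chow to 0.059 for the interaction. The widest interval for a single diet contrast, that of the own diet in the high-fat lineage, was -0.17 to 0.19.

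Of the Hsp90 pair, Hsp90aa1 is the stress-inducible form and Hsp90ab1 the constitutive one. Hsp90aa1 levels were 9.19, 9.0, 9.07 and 9.0 in the high-fat/high-fat group, 9.14, 9.32, 9.18 and 8.76 in high-fat/chow, 9.04, 9.31, 8.75, 9.59 and 9.15 in chow/high-fat and 9.36, 9.46, 9.16, 9.54 and 8.97 in chow/chow. It varied by up to 0.84 log2 between animals of 1 group, in chow/high-fat, and the group ranges overlapped throughout. Its difference for the grandpaternal diet averaged over own diets was -0.15 log2 (SE 0.10, 95% confidence interval -0.37 to 0.062, limma adjusted p = 0.507). Hsp90ab1 levels were 12.01, 11.94, 11.98 and 11.92 in the high-fat/high-fat group, 12.02, 11.96, 11.89 and 11.84 in high-fat/chow, 11.98, 12.01, 11.94, 12.07 and 11.97 in chow/high-fat and 11.93, 12.06, 12.05, 12.05 and 11.94 in chow/chow. They stayed within 0.23 log2 over all animals, and the largest of its differences in size for a single diet contrast was -0.081 for high-fat/chow minus chow/chow (95% confidence interval -0.20 to 0.037). Over the alternative settings that difference ran from -0.18 to -0.053.

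Among the small heat shock proteins, Hspb1 (Hsp27), which binds actin filaments and desmin, had the largest averaged grandpaternal difference in size of the 10 members. Its levels were 10.61, 10.31, 10.23 and 10.34 in the high-fat/high-fat group, 10.19, 10.37, 10.72 and 10.49 in high-fat/chow, 10.52, 10.50, 10.50, 10.77 and 10.59 in chow/high-fat and 10.50, 10.47, 10.72, 10.97 and 10.59 in chow/chow. In the high-fat/high-fat group 3 of 4 animals lay below every animal of the chow/high-fat and chow/chow groups, and the fourth, at 10.61, lay among them. The grandpaternal difference was -0.20 log2 (SE 0.079, 95% confidence interval -0.37 to -0.038, limma adjusted p = 0.237) averaged over own diets, -0.20 at own high-fat diet (95% confidence interval -0.43 to 0.035) and -0.21 at own chow diet (-0.44 to 0.025). With the title number as a block the averaged value was -0.23 (adjusted p = 0.223). The interaction was 0.0093 (95% confidence interval -0.32 to 0.34).

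Hspb6 (Hsp20), a partner of other small heat shock proteins in muscle, averaged 12.28 ± 0.055 in high-fat/high-fat, 12.30 ± 0.11 in high-fat/chow, 12.35 ± 0.12 in chow/high-fat and 12.42 ± 0.079 in chow/chow animals (mean log2 level ± SD, n = 4, 4, 5 and 5). Its grandpaternal difference averaged over own diets was -0.094 log2 (SE 0.050, 95% confidence interval -0.20 to 0.011, limma adjusted p = 0.398), and its interval includes 0. This value depends on the processing: over the alternative settings it ran from -0.21 to -0.076, with a smallest limma adjusted p of 0.0994. Like Hspa8, Hspb6 is near the top of the range, with 85 to 145 brighter probe sets on an array. Cryab (alpha B-crystallin), the chaperone of desmin and titin, had levels of 12.11, 12.06, 12.01 and 11.90 in the high-fat/high-fat group, 11.70, 12.01, 11.91 and 12.03 in high-fat/chow, 12.15, 11.93, 11.96, 11.91 and 11.85 in chow/high-fat and 12.18, 12.02, 12.08, 11.96 and 11.99 in chow/chow. The groups overlapped in all comparisons. High-fat/chow minus chow/chow was -0.13 (95% confidence interval -0.30 to 0.030) and high-fat/high-fat minus chow/high-fat was 0.061 (-0.10 to 0.22). Over the alternative settings the first ran from -0.26 to -0.062 and the second from -0.039 to 0.13.

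**Figure D3:**
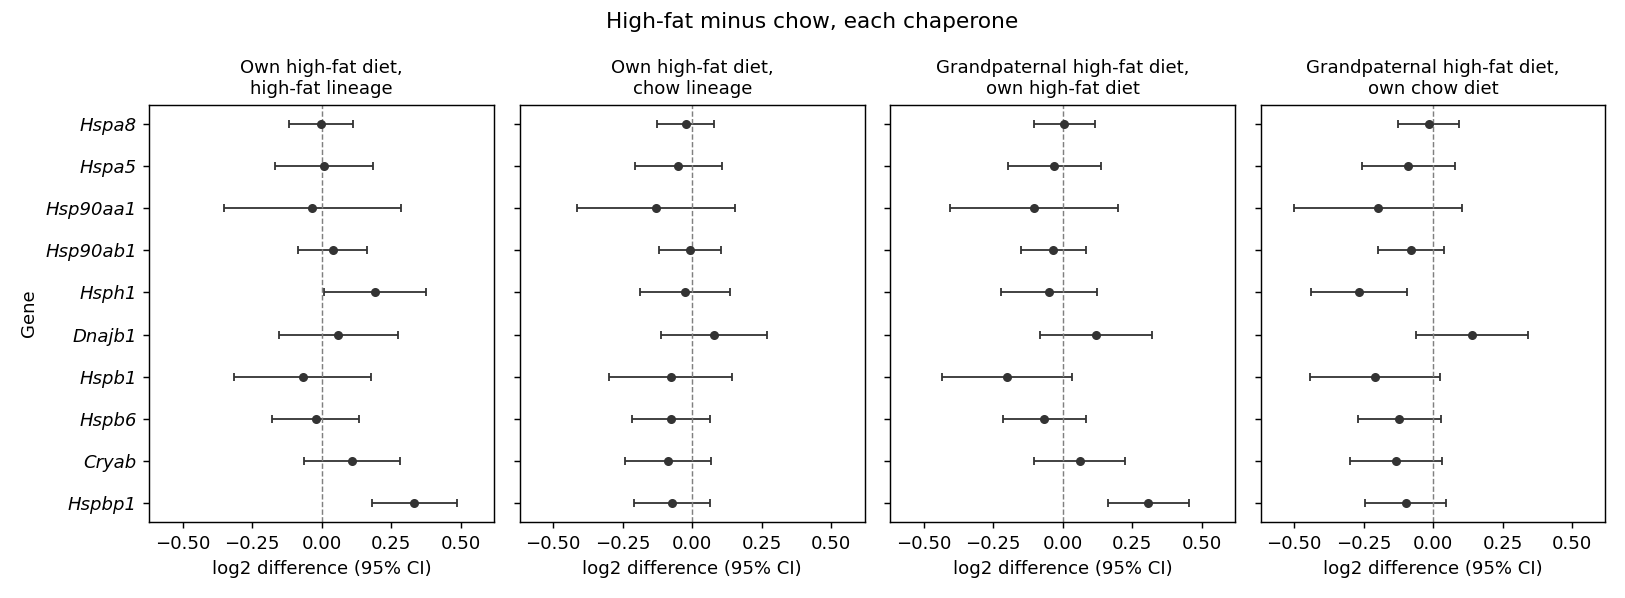
Differences in normalized log2 level of each chaperone, high-fat minus chow, in the 4 comparisons of single groups. Points are limma estimates and bars their 95% confidence intervals. The intervals of Hspbp1 lie above 0 where the high-fat/high-fat group is compared (0.31 and 0.33), and that of Hsph1 lies below 0 for the grandpaternal diet at own chow diet (-0.27).

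The members are described together by the signs of their differences and their median, beside the median of all genes. For the grandpaternal diet averaged over own diets 2 members had positive and 8 negative values, with a median of -0.058 log2 beside -0.0027 for all genes. At own chow diet it was 1 and 9, with a median of -0.11 beside -0.0018, and at own high-fat diet 4 and 6, with -0.032 beside 0.0010. For the own diet, the high-fat lineage had 6 positive and 4 negative values with a median of 0.024 beside -0.0012, and the chow lineage 1 and 9 with -0.061 beside -0.0031. Averaged over lineages the own diet had 5 and 5, with a median of -0.00098 beside -0.0028. The interaction had 9 and 1, with 0.057 beside 0.0043. These comparisons share animals, the signs are not independent, and no test was made on the list. On the table as deposited, where the median of all genes shifted by 0.18 at own high-fat diet, Hspa5 (0.15), Hsp90aa1 (0.14), Hsp90ab1 (0.037) and Hspb1 (0.0013) had positive values there but stayed below that median, and Hsph1 (0.20) lay above it.

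The rest of the chaperone network was read from lists of other Hsp70 and Hsp110 proteins, J-domain partners, exchange factors, Hsp90 cochaperones, small heat shock proteins, heat shock factors, chaperonins and the unfolded protein response. Of these, 83 genes were tested, and 0 passed in any of the 7 comparisons. Unadjusted p-values under 0.05 were found for 12 of the 83 for the grandpaternal diet averaged over own diets and for 3 for the own diet averaged over lineages. Over all 12749 genes these were 1862 and 857, so in these averaged comparisons the shares of the network were no higher than those of all genes. For the own diet there were 9 of the 83 in the high-fat lineage and 1 in the chow lineage, beside 1174 and 611 of all genes. For the grandpaternal diet there were 8 at own chow diet and 7 at own high-fat diet, beside 1112 and 1688. The interaction had 3, beside 866. The genes named here are those of smallest p in each list. The smallest adjusted p was that of Dnajb9, a J-domain protein of the endoplasmic reticulum that pairs with Hspa5, at -0.21 log2 (SE 0.057, limma adjusted p = 0.0982) for the averaged grandpaternal diet. Hsp90b1, the Hsp90 of the endoplasmic reticulum, had -0.20 (adjusted p = 0.143) in the same comparison, and Xbp1, a transcription factor of the unfolded protein response, had 0.18 (adjusted p = 0.322). Among the chaperonins Hspe1, the mitochondrial cochaperonin, had -0.22 (adjusted p = 0.175) and Cct7, a subunit of the cytosolic chaperonin, had -0.17 (adjusted p = 0.180). Dnaja1, another J-domain partner of Hsp70, had -0.25 (adjusted p = 0.175), and Cdc37, which loads kinases onto Hsp90, had 0.21 (adjusted p = 0.178). Bag1, also an exchange factor of Hsp70, had -0.13 (adjusted p = 0.231), and the mitochondrial Hsp70 Hspa9 had -0.15 (adjusted p = 0.280). For the heat shock factors and their regulators, Hsf2 had -0.095 (adjusted p = 0.554) and the binding protein Hsbp1 had 0.035 (adjusted p = 0.713). For the own diet averaged over lineages the smallest p-values were those of Eif2ak3, a stress-sensing kinase of the endoplasmic reticulum, at -0.15 (adjusted p = 0.657) and of the chaperonin subunit Cct4 at -0.12 (adjusted p = 0.658). The stress-inducible Hsp70 genes Hspa1a and Hspa1b had no single-symbol probe set and were not analysed here.

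Animals of 1 group differed from each other in some chaperones far more than in others. After group means were removed, the SD between animals was 0.24 log2 for Hsp90aa1, above that of 93.1% of the 1000 genes nearest to it in level, and 0.18 for Hspb1, above 85.1%. It was 0.046 for Hspa8, above 1.9%, 0.059 for Hsp90ab1, above 6.4%, and 0.092 for Hspbp1, above 11.8%. The other 5 members lay between 37.3% for Hspb6 and 53.5% for Cryab. Hspa8, Hsp90ab1, Hspb6 and Cryab lie near the top of the range, where the 1000 nearest genes are mostly dimmer. The median SD of those genes was the same, 0.108, for all of them. At that end quantile normalization sets a value by its rank, so the low places of Hspa8 and Hsp90ab1 may come from the scaling, which was not tested. Without the chow/high-fat arrays of lowest median, 0 members lay above 90%, and 0 did without chow/high-fat replicate 3 or without chow/high-fat replicate 4, so the place of Hsp90aa1 above 90% rests on single arrays of that group.

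These deviations were compared between members over the 18 animals, in 45 pairs with permutation tests within groups. The pair that passed was Hspa5 with Hspa8, the Hsp70 proteins of the endoplasmic reticulum and of the cytosol (Pearson's r = 0.72, permutation p = 0.00031, adjusted p = 0.0139; Spearman's rho = 0.71, adjusted p = 0.0396). Without the 2 animals farthest from the median of Hspa5, r was 0.67. With title numbers removed along with group means, r was 0.53 and the adjusted p 0.261, and with single animals left out r ran from 0.59 to 0.79, with an adjusted p of up to 0.122 without high-fat/chow replicate 4. Hspa8 spans a narrow range, as given above. The next pairs were Hsp90ab1 with Hsph1 (r = 0.74, rho = 0.73, permutation p = 0.00392, adjusted p = 0.0882), Hsp90aa1 with Hsp90ab1 (r = 0.68, rho = 0.64, adjusted p = 0.0921) and Hsp90aa1 with Hspa8 (r = 0.69, adjusted p = 0.121), none of which passed. Negative values were found for Dnajb1 with Hsp90aa1 (r = -0.53, adjusted p = 0.182) and for Hspa8 with Hspbp1 (r = -0.54, adjusted p = 0.239). Of all 45 pairs 23 had a positive r, the median r was 0.035, and 7 had an unadjusted p under 0.05. The small heat shock proteins had r of 0.07 to 0.25 with each other.

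**Figure D4:**
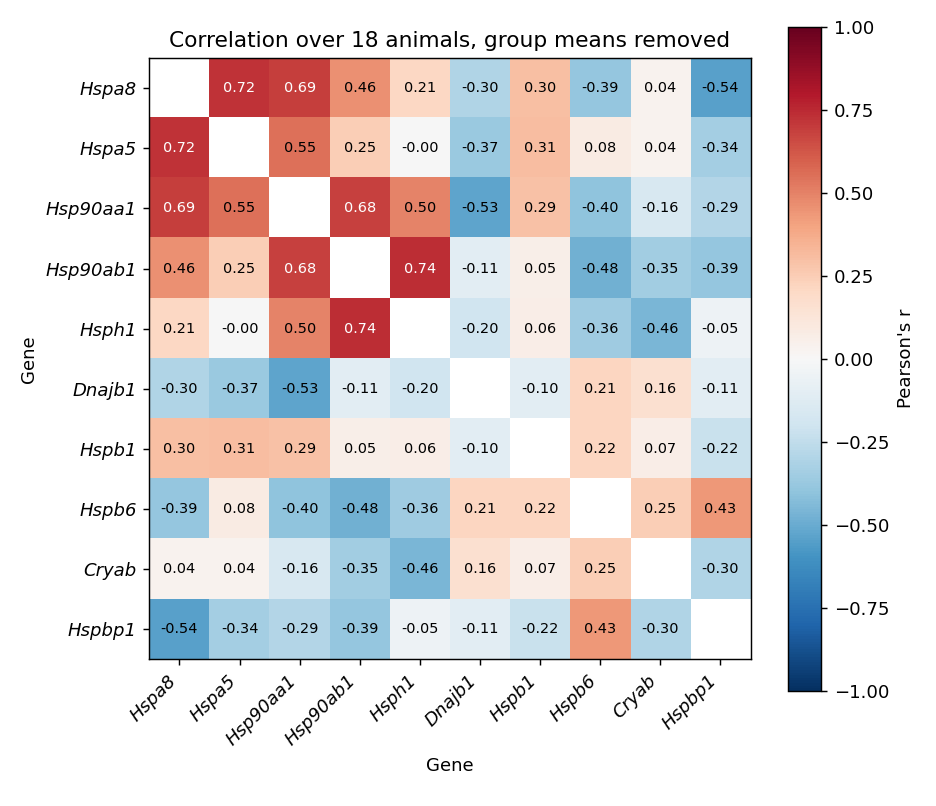
Pearson's r between the chaperones over 18 animals after group means were removed. Rows and columns are genes, and red and blue cells are positive and negative values. The Hsp70 and Hsp90 genes and Hsph1 form a block of mostly positive values at the upper left, up to 0.74, and Hspa5 with Hspa8 (0.72) is the pair that passed the adjustment.

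Genes that followed a member most closely over the animals are given as a description, for the 4 members of largest spread. They are those of highest r among all tested genes other than members. Picking the highest of so many gives a high r by itself, whatever the genes do. No p-value was computed for them, and shared regulation was not tested. Hsp90aa1 was followed by Dnaja1 (r = 0.89), Tsr3 (0.85) and Rhoh (0.82), and Dnaja1 is itself a J-domain cochaperone. Hsph1 was followed by Or8b56 (0.83), Pfdn2 (0.83) and Ngef (0.81), of which Pfdn2 is a subunit of the chaperone prefoldin. Hspb1 was followed by Tamm41 (0.81), the proteasome subunit Psmb1 (0.80) and Cnot11 (0.80), and Dnajb1 by Smug1 (0.80), Polr2g (0.77) and Timm50 (0.76). Cryab is named beyond that rule, after its values were seen: it was followed by C8h11orf52 (r = 0.90), which lies 2 protein-coding genes away on chromosome 8, and by Ldhb (0.86), the lactate dehydrogenase subunit of oxidative fibres. Hspb2, the small heat shock protein gene that lies between Cryab and C8h11orf52, had r = -0.083 with Cryab. All of these values share the arrays and their scaling.

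**Figure D5:**
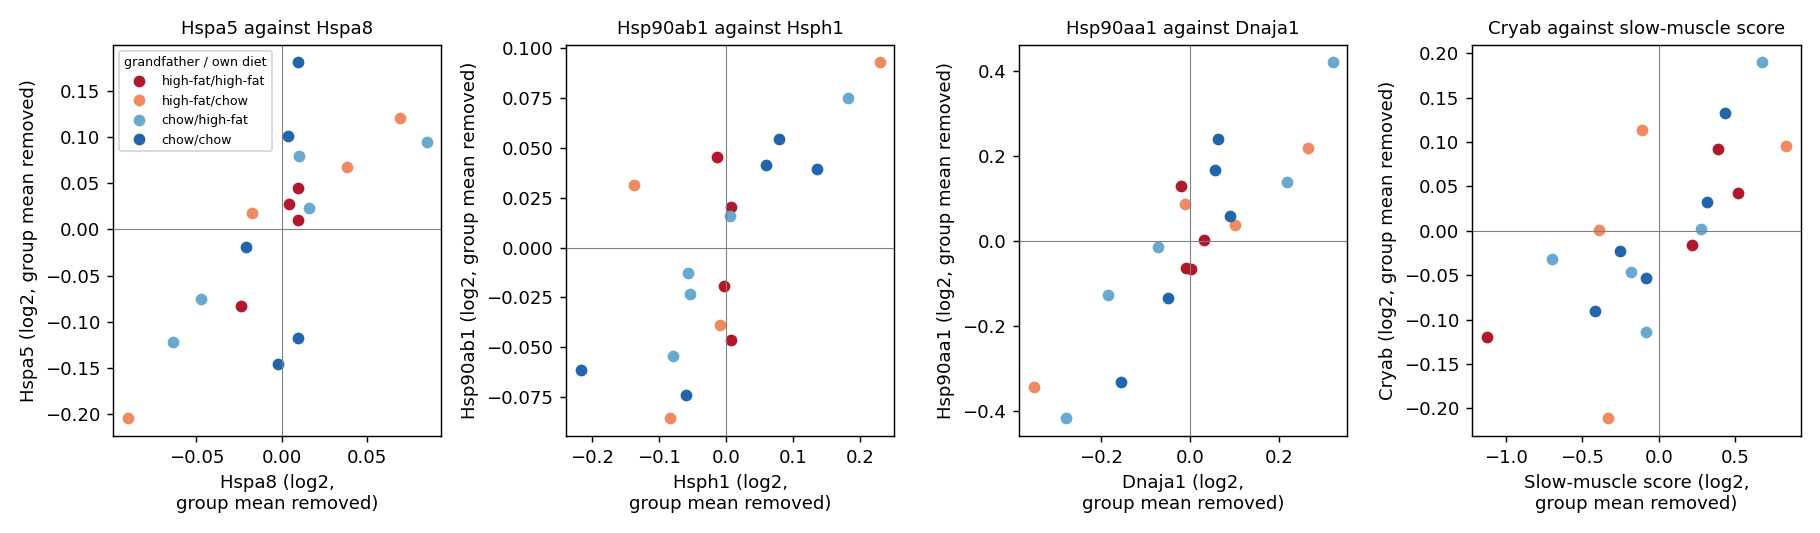
Deviations from the group mean in log2 for 4 pairs over 18 animals, with colours for the groups. From left to right the panels plot Hspa5 against Hspa8 (r = 0.72), Hsp90ab1 against Hsph1 (0.74), Hsp90aa1 against Dnaja1 (0.89) and Cryab against the slow-muscle score (0.71).

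Whole EDL holds fibre types and other cells, so 11 marker lists were scored per animal as the mean of centred log2 values. The slow-muscle score, over 12 of 12 markers, averaged 0.019 in high-fat/high-fat (-1.11 to 0.54), -0.40 in high-fat/chow (-0.79 to 0.44), -0.0093 in chow/high-fat (-0.71 to 0.67) and 0.31 in chow/chow animals (-0.11 to 0.75). Cryab followed it within groups (r = 0.71, rho = 0.75, permutation p = 0.00327, adjusted p = 0.360 over 110 pairs of members and lists, r = 0.67 without the 2 animals farthest from the median). Cryab also had positive r with the tendon (0.67, permutation p = 0.00845), nerve and Schwann (0.55, p = 0.0267), fast-muscle (0.55, p = 0.0307) and red blood cell lists (0.50, p = 0.0466), with adjusted p-values of 0.465 to 0.608, so the relation was not particular to slow-muscle markers. Hspbp1 went against the slow-muscle score (r = -0.69, rho = -0.62, permutation p = 0.0129, adjusted p = 0.474, and r = -0.46 without the 2 farthest). Its r was also negative with the fast-muscle (-0.50, permutation p = 0.133) and red blood cell lists (-0.50, p = 0.105), so both fibre lists went the same way. The largest positive r of Hspbp1 was 0.33, with the nerve and Schwann list. High-fat/high-fat replicate 4 had both the lowest slow-muscle score and the highest Hspbp1 level. Without that animal the grandpaternal difference of Hspbp1 at own high-fat diet was 0.25 log2 (adjusted p = 0.288). In all, 0 of the 110 pairs passed and 8 had an unadjusted p under 0.05. These correlations were computed after the data were seen, and the part of fibre type in any chaperone value was not tested.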

How the data were processed

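Total RNA of EDL muscle (200 ng per array) from 18 rats was hybridized to Affymetrix arrays, 1 per animal, per the labels' protocols. The deposited table holds 1 linear intensity per probe set (20917) and array, and per the submitters' processing notes the authors used Affymetrix Expression Console and PLIER; versions, settings and background correction are not given in the sources used here. Groups came from the sample source labels. The members and lists were chosen with earlier results of these data known.

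Intensities were taken as log2(intensity + 16), which understates changes of dim genes, and quantile-normalized because array medians differed by 0.341 log2. Of several probe sets with the same single symbol (18197 had exactly 1) the brightest was kept, if above the 25th percentile of all probe sets (5.26 log2). Gene identifiers of all 10 members matched RefSeq GRCr8. A group-means model over 18 arrays was fitted with limma 3.58.1 (R 4.3.3; lmFit, eBayes), with two-sided tests and Benjamini-Hochberg adjustment over 12749 genes within each of 7 comparisons, at 0.05. Correlations used values minus group means and 100000 two-sided permutations within groups (numpy 2.4.6, scipy 1.17.1), adjusted over 45 member pairs or 110 member and marker pairs. Members are all named; of each pathway list the genes of smallest p in the averaged comparisons; likeness is given for the 4 members of largest spread. No copies were found among 32 within-group array pairs (log2 differences with an SD of 0.187 or more, 0.0908% identical values or fewer). The scripts were tested on simulated data. Alternatives were other scalings, offsets and filters, all probe sets, other variance settings, the compared groups alone, title number or neighbouring animal numbers as blocks, and each array left out. The letter and number after the animal number in the titles recur in both lineages, and their meaning is not given in the sources used here.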

Additional observations from a re-analysis of the deposited data

Results flagged for a closer look

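Hspbp1 drew attention because the grandpaternal high-fat diet went with opposite signs in the granddaughters' own diets. All 4 high-fat/high-fat animals lay above the mean of the chow/high-fat group (difference 0.31 log2), and all 4 high-fat/chow animals lay below the mean of the chow/chow group (difference -0.098 log2). The gap between these differences was 0.406 log2. Its limma interaction did not pass the adjustment over all genes (adjusted p = 0.549). Of 40 sets of values, 1 per member and group, 0 had a sample far from the others by Dixon's test, which chance flags in about 1 of 20.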

How the results depend on the processing

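Over 31 settings, 2123 of 2140 values of single members kept their sign, or changed it by less than 1 SE of the main value, and their side of the threshold. Members past the threshold remained 0 in 6 of the 7 comparisons. For the grandpaternal diet at own high-fat diet the count was 1, Hspbp1, on the table as deposited (0.55 log2, adjusted p = 0.0144). In that setting 1680 of 12750 genes passed, so a call of 1 member does not stand out from the background. With single arrays left out the count of members was 0 to 1 (1 without high-fat/high-fat replicate 1), and 0 to 56 of all genes passed. Over the settings this Hspbp1 difference ran from 0.25 to 0.55 and its adjusted p from 0.0144 to 0.401. The table as deposited shifted the median of all genes by -0.13 for the own diet in the chow lineage, 0.11 in the high-fat lineage, 0.18 for the grandpaternal diet at own high-fat diet and 0.24 for the interaction. On it the sign turned, for the grandpaternal diet at own high-fat diet, for Hspa8 (-0.079), Hspa5 (0.15), Hsp90aa1 (0.14), Hsp90ab1 (0.037), Hsph1 (0.20) and Hspb1 (0.0013), for the own diet in the high-fat lineage for Hsp90aa1 (0.13) and Hspb1 (0.066), and for Dnajb1 in the chow lineage (-0.047) and the interaction (0.21). With arrays centred on their medians it turned for Hspa8 (0.034 for the own diet in the chow lineage, -0.25 for the grandpaternal diet at own high-fat diet, -0.098 for the interaction) and Cryab (-0.039 for the grandpaternal diet at own high-fat diet), and without the 2 arrays of lowest median for Hspb6 (0.00090 for the own diet in the chow lineage). On the table as deposited, some of the turned values kept their side of the shifted median of all genes. These were Hspa5, Hsp90aa1, Hsp90ab1 and Hspb1 for the grandpaternal diet at own high-fat diet, Hspb1 in the high-fat lineage, and Dnajb1. The cause of the turns was not tested for any of them.

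Pairs of members that passed numbered 1 in the main setting, 7 as deposited, 6 with median centring, 0 with the title number removed, 0 without the 2 arrays of lowest median, and 0 to 2 with single arrays left out. Members above the 90th percentile of spread numbered 1, 2 with median centring, 0 without the 2 arrays of lowest median, and 0 to 1 with single arrays left out. Counts over all genes ran from 0 to 304 (25 in the main setting) for the averaged grandpaternal diet, 0 to 15 (2) for the averaged own diet, 0 to 2 (1) for the grandpaternal diet at own chow diet and 0 to 1680 (0) at own high-fat diet, the last on the table as deposited. In the other 3 comparisons they were 0 or 1. Neighbouring animal numbers as a random block (correlation 0.125, 8 pairs) changed no call of a member, and left 0 genes for the averaged grandpaternal diet and 14 for the averaged own diet. Chosen after seeing the data were the alternatives for the spread of members, marker correlations, the count of genes outside the other 14 animals and the other Hspa8 probe sets. Each of the 8 pairs of neighbouring numbers joined an own high-fat and an own chow animal of the same lineage. Whether such animals are littermates or were otherwise paired is not given. The main model treats all animals as unpaired, and no fixed block of pairs or replicates was fitted. The number of arrays limits what can be seen, and signal over background is not given in the deposited table.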
